A study of Homo sapiens with 4 samples.

Results

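Aminoacyl-tRNA synthetases join each amino acid to its transfer RNA, and the mRNA levels of the human genes for the cytosolic and the mitochondrial enzymes were followed here in 4 libraries of MCF10A cells. Members were chosen by symbol, with the cytosolic enzymes named after their amino acid and the mitochondrial enzymes carrying the same name with a final 2. Of 36 named members, 32 were found among the 18840 genes, 18 of them cytosolic and 14 mitochondrial. FARSB, IARS, RARS2 and TARS2 were not analysed here. All 32 passed the filter on low values, a mean of at least 1 CPM (reads scaled to library size) over the 4 libraries, which 12484 genes passed.

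MCF10A is an immortalised, non-tumorigenic line of human mammary epithelium. Cells stably carried 1 of 4 pBabe retroviral constructs, which encoded the microRNA miR-105 (pBabe-miR-105), the transcription factor MYC (pBabe-MYC), no insert (pBabe vector) or GFP (pBabe-GFP), and all were grown in the same serum- and hormone-containing medium. Poly(A) RNA was sequenced from 1 library per construct, so no difference below has a replicate check, and the 95% intervals of folds cover counting error only. The labels do not say whether each line is 1 clone or a pool.

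Translation in the cytosol and inside the mitochondrion each need charged tRNAs, and the synthetases for both are encoded in the nucleus. Most amino acids have a separate gene for each compartment, but mitochondrial glutamine tRNA is made from a glutamate intermediate charged by EARS2, KARS and GARS each encode both the cytosolic and the mitochondrial enzyme, and EPRS fuses the glutamate and proline enzymes in 1 protein. Several cytosolic synthetases sit together in the multi-synthetase complex, held by the scaffold proteins AIMP1, AIMP2 and EEF1E1. Many of the cytosolic genes are known targets of ATF4 in amino acid shortage, and MYC is known to bind E-boxes in promoters of growth genes.

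Promoter sequences are shown for the analysed members that hold 1 of the motifs looked for, and for the HARS2 side of a gene pair whose RefSeq promoters overlap. RefSeq promoters on GRCh38.p14, reaching from 250 bases before the gene start to 50 after it, were matched for 30 of the 36 members. DARS, LARS, VARS, YARS, AARS2 and VARS2 were not matched. The E-box CACGTG, which reads the same on both strands, was present in 7.43% of the 27305 promoters. Among the members it was present in 1 of 16 cytosolic promoters, that of IARS, and in 3 of 14 mitochondrial promoters, those of MARS2, EARS2 and CARS2. The CARS2 and EARS2 matches depend on the RefSeq start used. In the annotation used for gene positions, CARS2 starts at base 110713603 of chromosome 13 on the minus strand. Its window, at chr13:110706496-110706765, lies well inside that gene and may not be its main promoter. In the same annotation EARS2 starts at base 23557731 of chromosome 16 on the minus strand, so its window also lies inside the gene. MARS2 starts at base 197705369 of chromosome 2 in that annotation, within its printed window. Promoters of FARSB, IARS, RARS2 and TARS2 are part of the 16 and 14, though mRNA of these genes was not analysed here. The amino acid response element was searched on both strands as TGATGNAAT only. That form was present in 1.02% of all promoters, in the TARS promoter among the 16 cytosolic ones and in 0 of 14 mitochondrial ones. The TARS match depends on the RefSeq start as well. In the annotation used for gene positions, TARS starts at base 33440696 of chromosome 5 on the plus strand, so its window lies inside the gene. Stretches with another last letter were not counted, such as TGATGCAAC, read on either strand, in the AARS, CARS, IARS, MARS and NARS promoters. No printed window holds both motifs. A match describes the letters and does not show that a factor binds there. The printed windows run 5′ to 3′ along the gene and end 20 bases past the RefSeq start, and capitals mark the motif. The MARS2 window lies at chr2:197705119-197705388 on the plus strand, EARS2 at chr16:23557331-23557600 on the minus strand, CARS2 at chr13:110706496-110706765 on the minus strand and TARS at chr5:33440715-33440984 on the plus strand.
MARS2: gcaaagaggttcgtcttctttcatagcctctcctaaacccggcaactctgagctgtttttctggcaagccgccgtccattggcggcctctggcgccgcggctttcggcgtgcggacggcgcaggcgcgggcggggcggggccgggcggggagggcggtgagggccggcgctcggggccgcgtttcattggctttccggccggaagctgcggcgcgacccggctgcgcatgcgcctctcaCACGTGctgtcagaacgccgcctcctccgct
EARS2: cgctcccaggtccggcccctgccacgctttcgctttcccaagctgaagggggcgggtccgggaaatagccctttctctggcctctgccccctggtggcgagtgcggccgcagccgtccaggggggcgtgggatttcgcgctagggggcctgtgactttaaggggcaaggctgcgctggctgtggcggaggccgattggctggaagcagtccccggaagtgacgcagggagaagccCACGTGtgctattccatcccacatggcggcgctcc
CARS2: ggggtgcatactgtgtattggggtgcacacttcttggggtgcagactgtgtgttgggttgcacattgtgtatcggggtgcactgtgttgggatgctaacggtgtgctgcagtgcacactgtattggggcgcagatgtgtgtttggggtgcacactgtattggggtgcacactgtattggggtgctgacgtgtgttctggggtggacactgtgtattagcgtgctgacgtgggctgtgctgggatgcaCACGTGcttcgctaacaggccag
TARS: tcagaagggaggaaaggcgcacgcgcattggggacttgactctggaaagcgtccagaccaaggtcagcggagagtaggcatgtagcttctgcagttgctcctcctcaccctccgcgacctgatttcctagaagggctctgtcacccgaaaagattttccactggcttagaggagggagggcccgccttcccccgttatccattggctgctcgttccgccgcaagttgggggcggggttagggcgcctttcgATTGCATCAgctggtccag

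HARS and HARS2, the cytosolic and mitochondrial histidine enzymes, lie head to head on chromosome 5. Their RefSeq starts are 85 bases apart, and by these starts both are read outward from 1 short stretch. In the annotation used for gene positions, HARS starts at base 140691862 on the minus strand and HARS2 at base 140691426 on the plus strand. By that annotation the genes overlap at their starts. The HARS2 window is shown at chr5:140691205-140691474 on the plus strand, with the 124 bases that also fall in the matching HARS window in capitals.
HARS2: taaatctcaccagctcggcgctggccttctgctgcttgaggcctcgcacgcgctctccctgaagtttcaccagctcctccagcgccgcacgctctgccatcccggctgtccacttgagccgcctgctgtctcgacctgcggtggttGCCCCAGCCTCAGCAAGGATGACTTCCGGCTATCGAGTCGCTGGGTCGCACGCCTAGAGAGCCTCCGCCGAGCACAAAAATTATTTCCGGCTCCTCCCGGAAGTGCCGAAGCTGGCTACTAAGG

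The recovered libraries held 6859698 reads for miR-105, 9795159 for MYC, 9138429 for vector and 14025115 for GFP, and each member had between 49 and 5670 reads per library. MYC mRNA stood at 463 CPM in the library labelled miR-105 and 232 CPM in the library labelled MYC, against 207 CPM in vector and 198 CPM in GFP. The library labelled MYC was thus within 1.17-fold of both controls for the gene its construct encodes, so both libraries are named by their labels only. Epithelial markers summed to 6731 CPM in the library labelled miR-105 and 7192 CPM in that labelled MYC, against 10213 CPM in vector and 8958 CPM in GFP. Single markers went both ways. At 1.5-fold against both controls, the library labelled miR-105 had 3 of 8 higher and 2 lower. That labelled MYC had 3 higher and 3 lower. Among all genes past the filter, 24.6% were higher and 26.0% lower for miR-105, and 17.3% and 18.0% for MYC. With only 8 markers, these counts do not separate the markers from all genes. KRT17 stood at 766 and 1777 CPM in the libraries labelled miR-105 and MYC, against 6927 and 5131 CPM in vector and GFP, while KRT5 stood at 4654 and 4138 CPM, against 1757 and 1614 CPM. Of 6 proliferation genes, 6 were higher by the same threshold for miR-105 and 3 for MYC, against 24.6% and 17.3% of all genes. The median log2 folds of the 6 genes were 5.37 and 0.78 in these libraries. MKI67, the proliferation antigen Ki-67, stood at 1169 CPM in the library labelled miR-105 and 36.3 CPM in that labelled MYC, against 11.4 CPM in vector and 14.9 CPM in GFP. The part of proliferation in the results on the synthetases was not tested. In bulk RNA, fewer cells of a type and less RNA per cell cannot be told apart.

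Levels per kilobase of exon were higher for the cytosolic than for the mitochondrial members in all 4 libraries. The cytosolic median was 69.4 CPM per kb in the library labelled miR-105, 44.5 in that labelled MYC, 33.1 in vector and 32.8 in GFP. The mitochondrial median was 14.9, 10.1, 7.09 and 7.43 CPM per kb in the same libraries. The ranges overlapped in every library, and CARS2 and HARS2 were above the lowest cytosolic gene in each. IARS2, the mitochondrial isoleucine enzyme, had the highest mitochondrial level, at 78.7 CPM per kb in the library labelled miR-105, 128 in that labelled MYC, 48.3 in vector and 58.8 in GFP. Averaged over the libraries, SARS, the cytosolic serine enzyme, was highest of all members at 91.9 CPM per kb and PARS2, the mitochondrial proline enzyme, lowest at 3.80.

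Summed over the genes, cytosolic synthetase mRNA came to 3979 CPM in the library labelled miR-105 and 2853 CPM in that labelled MYC, against 2317 CPM in vector and 2127 CPM in GFP. Mitochondrial synthetase mRNA came to 932 CPM in the library labelled miR-105 and 943 CPM in that labelled MYC, against 572 CPM in vector and 574 CPM in GFP. Both sums in the library labelled miR-105 were 1.62-fold to 1.87-fold those of the controls. For the library labelled MYC, the cytosolic sum was 1.23-fold and 1.34-fold, and the mitochondrial sum 1.65-fold and 1.64-fold, those of vector and GFP.

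**Figure D1:**
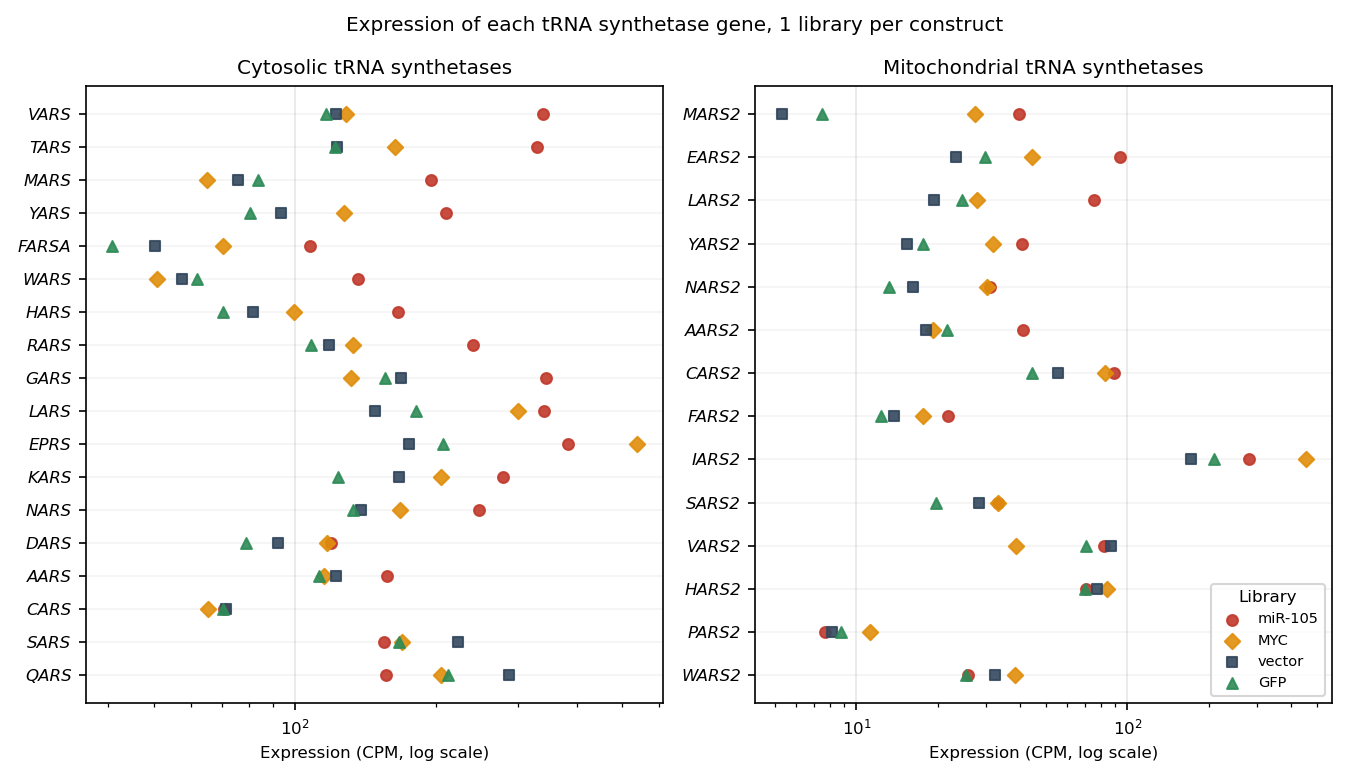
Expression of the 18 cytosolic (left) and 14 mitochondrial (right) tRNA synthetase genes, in CPM on a log axis, with 1 point per library: miR-105, MYC, vector and GFP. Genes are ordered by their mean log2 fold in the library labelled miR-105, with VARS and MARS2 at the top, where the point of that library stands right of both controls.

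The library labelled miR-105 was compared with vector and GFP for each set. A gene counted as higher, or lower, if it was at least 1.5-fold so against both controls. Of the 18 cytosolic members 13 were higher and 0 lower, where 24.6% of all compared genes were higher and 26.0% lower. Of the 14 mitochondrial members 8 were higher and 0 lower. The median log2 fold, with 0.5 CPM added to each value, was 1.07 for the cytosolic and 0.78 for the mitochondrial members, against 0.0052 for all compared genes. Both sets ranged widely, from -0.65 to 1.5 for the cytosolic and from -0.16 to 2.57 for the mitochondrial members.

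VARS, which charges valine tRNA, had the highest cytosolic fold. It stood at 339 CPM in the library labelled miR-105 and 129 CPM in that labelled MYC, against 122 CPM in vector and 117 CPM in GFP. The library labelled miR-105 was 2.77-fold vector (interval 2.57 to 2.98) and 2.91-fold GFP (2.73 to 3.10), while the other libraries lay close together. TARS, the threonine enzyme, stood at 329 CPM in the library labelled miR-105 and 164 CPM in that labelled MYC, against 123 CPM in vector and 122 CPM in GFP, or 2.67-fold (2.48 to 2.87) and 2.69-fold (2.52 to 2.87) the controls in the library labelled miR-105. MARS, the methionine enzyme, stood at 195 CPM in the library labelled miR-105 and 64.8 CPM in that labelled MYC, against 75.8 CPM in vector and 83.4 CPM in GFP, so the library labelled MYC was the lowest of the 4. Its fold in the library labelled miR-105 was 2.58 over vector (2.35 to 2.83) and 2.34 over GFP (2.16 to 2.54). Exons of MARS and of DDIT3, on the other strand, overlap over 62 bases in the annotation, and DDIT3 stood at 3.14 CPM in the library labelled miR-105, against 21.6 CPM in vector and 14.3 CPM in GFP.

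The same order, with the library labelled miR-105 above the other 3, held for YARS, FARSA, WARS, HARS, RARS and GARS. YARS, the tyrosine enzyme, stood at 210.3 CPM in the library labelled miR-105 and 127 CPM in that labelled MYC, against 93.5 CPM in vector and 80.3 CPM in GFP, with folds of 2.25 (2.06 to 2.45) and 2.62 (2.42 to 2.84) for the library labelled miR-105. FARSA, the catalytic subunit of the phenylalanine enzyme, stood at 108 and 70.3 CPM in the libraries labelled miR-105 and MYC, against 50.3 and 40.8 CPM in vector and GFP, with folds of 2.14 (1.90 to 2.41) and 2.64 (2.35 to 2.95) for miR-105. For WARS, the tryptophan enzyme that interferon gamma is known to induce, the levels were 136 and 50.7 CPM in the libraries labelled miR-105 and MYC, against 57.5 and 61.9 CPM in vector and GFP. The WARS folds for miR-105 were 2.37 (2.12 to 2.64) and 2.20 (2.0 to 2.42), and the library labelled MYC lay below both controls. HARS stood at 166 and 99.7 CPM in the libraries labelled miR-105 and MYC, against 81.6 and 70.4 CPM in vector and GFP, with folds of 2.04 (1.86 to 2.24) and 2.37 (2.17 to 2.58) for miR-105.

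RARS, the arginine enzyme, stood at 240.4 and 133 CPM in the libraries labelled miR-105 and MYC, against 118 and 108 CPM in vector and GFP, with folds of 2.03 (1.88 to 2.20) and 2.22 (2.07 to 2.38) for miR-105. GARS, which serves both compartments with glycine tRNA, stood at 344 and 132 CPM in the libraries labelled miR-105 and MYC, against 169 and 156 CPM in vector and GFP. Its folds for miR-105 were 2.04 (1.91 to 2.17) and 2.21 (2.08 to 2.34), and the library labelled MYC was the lowest of the 4.

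The other 4 cytosolic members past the threshold in the library labelled miR-105 were LARS, EPRS, KARS and NARS. EPRS stood highest in the library labelled MYC, and its values are given with that library. LARS, the leucine enzyme that also senses leucine for mTORC1, stood at 341 and 299 CPM in the libraries labelled miR-105 and MYC, against 148 and 182 CPM in vector and GFP. Both labelled libraries were above both controls, with folds of 2.30 (2.15 to 2.46) and 1.87 (1.77 to 1.99) for miR-105. KARS, the lysine enzyme of both compartments, stood at 279 and 205 CPM in the libraries labelled miR-105 and MYC, against 167 and 124 CPM in vector and GFP, with folds of 1.67 (1.56 to 1.79) and 2.25 (2.11 to 2.41) for miR-105. NARS, the asparagine enzyme, stood at 247 and 168 CPM in the libraries labelled miR-105 and MYC, against 139 and 133 CPM in vector and GFP, with folds of 1.78 (1.65 to 1.92) and 1.85 (1.73 to 1.98) for miR-105.

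Not every cytosolic member was higher. QARS, the glutamine enzyme, had the lowest cytosolic fold, at 157 CPM in the library labelled miR-105 and 205 CPM in that labelled MYC, against 286 CPM in vector and 212 CPM in GFP. It was 0.548-fold vector (0.509 to 0.590) and 0.740-fold GFP (0.688 to 0.795) in the library labelled miR-105, and so was 1.5-fold lower than vector but not than GFP. SARS stood at 155 CPM in the library labelled miR-105 and 169.6 CPM in that labelled MYC, against 223 CPM in vector and 167 CPM in GFP. CARS, the cysteine enzyme, stood between 65.2 and 71.5 CPM in all 4 libraries. AARS, the alanine enzyme, stood at 158 and 115 CPM in the libraries labelled miR-105 and MYC, against 123 and 113 CPM in vector and GFP. For DARS, the aspartate enzyme, the levels were 119.5 and 117 CPM in the libraries labelled miR-105 and MYC, against 92.1 and 78.6 CPM in vector and GFP. The library labelled miR-105 was past the threshold against GFP only, and that labelled MYC against neither control.

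Among the mitochondrial members, MARS2, the mitochondrial methionine enzyme, had the largest fold of all 32. It stood at 39.7 CPM in the library labelled miR-105 and 27.5 CPM in that labelled MYC, against 5.30 CPM in vector and 7.44 CPM in GFP, and the vector value rests on 49 reads. Both labelled libraries were well above both controls, and the library labelled miR-105 was 7.49-fold vector (5.50 to 10.4) and 5.33-fold GFP (4.23 to 6.77). EARS2, the mitochondrial glutamate enzyme, stood at 93.6 CPM in the library labelled miR-105 and 44.5 CPM in that labelled MYC, against 23.4 CPM in vector and 29.8 CPM in GFP, with folds of 4.01 (3.43 to 4.71) and 3.15 (2.77 to 3.58) for miR-105. Exons of EARS2 overlap those of UBFD1 on the other strand over 370 bases, and reads there cannot be told apart without strand. LARS2, the mitochondrial leucine enzyme, stood at 75.3 CPM in the library labelled miR-105 and 28.0 CPM in that labelled MYC, against 19.4 CPM in vector and 24.6 CPM in GFP, with folds of 3.89 (3.27 to 4.65) and 3.07 (2.66 to 3.53) for miR-105. The E-box in capitals above is in the MARS2 and EARS2 windows, and not in that of LARS2. A link between the motif and these folds was not tested.

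Another 5 mitochondrial members were past the threshold in that library. YARS2 (tyrosine) stood at 40.8 and 32.0 CPM in the libraries labelled miR-105 and MYC, against 15.4 and 17.6 CPM in vector and GFP, with folds of 2.66 (2.16 to 3.28) and 2.31 (1.94 to 2.77) for miR-105. NARS2 (asparagine) stood at 31.1 and 30.2 CPM in the libraries labelled miR-105 and MYC, against 16.1 and 13.2 CPM in vector and GFP, with folds of 1.93 (1.55 to 2.40) and 2.36 (1.92 to 2.90) for miR-105. In both genes the labelled libraries lay above both controls. AARS2 (alanine) stood at 41.1 and 19.3 CPM in the libraries labelled miR-105 and MYC, against 18.1 and 21.5 CPM in vector and GFP, with folds of 2.28 (1.87 to 2.78) and 1.91 (1.61 to 2.26) for miR-105. CARS2 (cysteine) stood at 89.4 and 83.0 CPM in the libraries labelled miR-105 and MYC, against 55.5 and 44.4 CPM in vector and GFP, with folds of 1.61 (1.43 to 1.82) and 2.02 (1.80 to 2.26) for miR-105. FARS2 (phenylalanine) stood at 21.8 and 17.6 CPM in the libraries labelled miR-105 and MYC, against 13.7 and 12.3 CPM in vector and GFP, with folds of 1.59 (1.24 to 2.04) and 1.78 (1.41 to 2.23) for miR-105. Both FARS2 intervals and the CARS2 interval over vector reach below 1.5-fold, so counting error alone could take either gene across the threshold.

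WARS2, the mitochondrial tryptophan enzyme, had the lowest mitochondrial fold, at 25.7 CPM in the library labelled miR-105 and 38.4 CPM in that labelled MYC, against 32.5 CPM in vector and 25.4 CPM in GFP. In the library labelled miR-105 it was 0.790-fold vector (0.649 to 0.959) and 1.01-fold GFP (0.835 to 1.22). HARS2 stood between 69.6 and 84.1 CPM in all 4 libraries, unlike HARS, whose RefSeq promoter overlaps that of HARS2. The exons of the pair overlap over 402 bases on opposite strands, so some of their reads cannot be told apart without strand. PARS2 stood at 7.69 and 11.2 CPM in the libraries labelled miR-105 and MYC, against 8.11 and 8.74 CPM in vector and GFP. SARS2 (serine) stood at 33.4 and 33.3 CPM in the libraries labelled miR-105 and MYC, against 28.2 and 19.7 CPM in vector and GFP, and 1492 of its exon bases overlap other genes, MRPS12 among them. Further members overlap genes on the other strand, among them YARS with S100PBP (248 bases) and AARS2 with TMEM151B (235 bases). WARS overlaps WDR25 and an antisense gene in the same way, over at most 272 bases with either.

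Count tests that took vector and GFP as 1 control group compare these libraries and not the constructs. For the library labelled miR-105, edgeR's quasi-likelihood test at an adjusted p under 0.05 called 19 of 32 members, all higher, where it called 19.8% of all compared genes higher and 19.3% lower. NARS and FARS2, which passed 1.5-fold, were not called. DESeq2 called 15 of 32 members, all higher, where it called 12.9% of all genes higher, and left out KARS, AARS2, CARS2 and NARS2 as well.

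**Figure D2:**
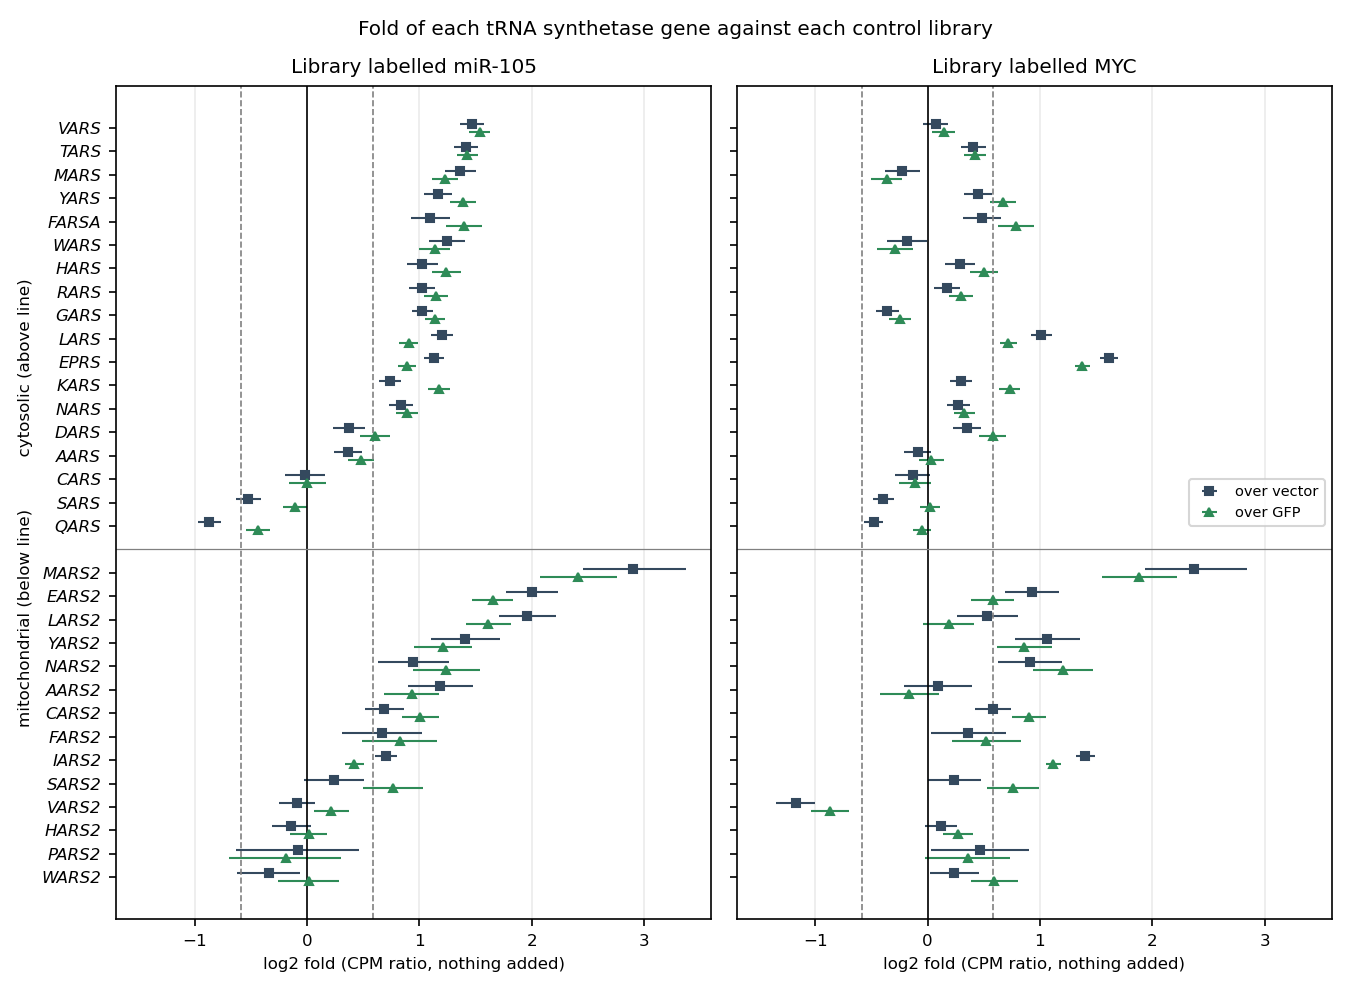
Log2 fold of each tRNA synthetase gene in the library labelled miR-105 (left) and the library labelled MYC (right), over vector (squares) and over GFP (triangles), with cytosolic genes above and mitochondrial genes below the horizontal line. Bars are exact 95% counting intervals and dashed lines mark 1.5-fold, which 13 cytosolic and 8 mitochondrial genes passed against both controls on the left and 2 and 4 on the right.

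Fewer members were higher in the library labelled MYC. Against both controls, 2 of 18 cytosolic members, EPRS and LARS, were higher and 0 lower, where 17.3% of all compared genes were higher and 18.0% lower. Of the 14 mitochondrial members, MARS2, IARS2, NARS2 and YARS2 were higher (4 of 14) and VARS2 lower (1 of 14). With so few genes, both counts lay near the share over all genes. The median log2 fold was 0.27 for the cytosolic and 0.46 for the mitochondrial members, against 0.04 for all genes. With GFP as the only control, 5 cytosolic and 7 mitochondrial members were higher, and with vector as the only control, 2 and 5. Asking for the threshold against 1 control in place of both can only keep or raise such counts.

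EPRS had the largest cytosolic fold in the library labelled MYC. It stood at 384 CPM in the library labelled miR-105 and 538 CPM in that labelled MYC, against 176 CPM in vector and 207 CPM in GFP. The library labelled MYC was 3.06-fold vector (2.90 to 3.24) and 2.60-fold GFP (2.48 to 2.72), and the library labelled miR-105 was 2.19-fold (2.05 to 2.33) and 1.86-fold (1.76 to 1.96). LARS in the library labelled MYC was 2.02-fold vector (1.89 to 2.15) and 1.65-fold GFP (1.56 to 1.74). edgeR's quasi-likelihood test, with vector and GFP taken as 1 control group, called EPRS and not LARS. It called 6 of 32 members in that library, where it called 10.9% of all compared genes higher and 11.4% lower, and the other 5 were MARS2, IARS2, NARS2, YARS2 and VARS2. DESeq2 called 3 of 32, EPRS, IARS2 and MARS2, where it called 5.63% of all genes higher and 8.43% lower.

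IARS2 stood at 280.3 CPM in the library labelled miR-105 and 455 CPM in that labelled MYC, against 172 CPM in vector and 209 CPM in GFP. The library labelled MYC was 2.65-fold vector (2.50 to 2.80) and 2.17-fold GFP (2.08 to 2.28), and the library labelled miR-105 passed 1.5-fold against vector only. MARS2 was 5.19-fold vector (3.82 to 7.18) and 3.70-fold GFP (2.94 to 4.67) in the library labelled MYC, the largest fold of any member, there. NARS2 was 1.88-fold (1.54 to 2.30) and 2.30-fold (1.91 to 2.78), and YARS2 2.09-fold (1.71 to 2.56) and 1.82-fold (1.54 to 2.15). Those 3 were higher in both labelled libraries. VARS2, the mitochondrial valine enzyme, stood at 82.0 CPM in the library labelled miR-105 and 38.7 CPM in that labelled MYC, against 87.2 CPM in vector and 70.6 CPM in GFP. The library labelled MYC was 2.26-fold lower than vector (2.0 to 2.55) and 1.82-fold lower than GFP (1.62 to 2.05), and was the only library apart from the others. CARS2 stopped just short of 1.5-fold against vector, and EARS2, at 1.49-fold, just short of it against GFP. Among cytosolic members in the library labelled MYC, MARS had the next to lowest cytosolic fold, at 0.856-fold vector (0.769 to 0.952) and 0.778-fold GFP (0.707 to 0.856), and GARS the lowest, at 0.781-fold (0.726 to 0.840) and 0.846-fold (0.790 to 0.905).

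EPRS and IARS2 are neighbours on chromosome 1, at chr1:219968601-220046658 and chr1:220094102-220148041 on GRCh38. Genes around them were also higher in the library labelled MYC. Of the 84 compared genes within 10 Mb of EPRS, 65.5% were at least 1.5-fold higher than both controls in that library, with a median log2 fold of 0.97, and the median was 0.96 for the 85 genes around IARS2. For the other 30 members the median of the neighbours was at most 0.34, around TARS. EPRS lay 0.52 and IARS2 0.30 above the median of their neighbours on the log2 scale, against 1.75 for MARS2, 0.84 for YARS2, 0.70 for NARS2, 0.66 for LARS and -1.06 for VARS2. Within 1 Mb of the pair, 7 of 8 other compared genes were higher in the library labelled MYC, including BPNT1 and RAB3GAP2, and 2 of 8 in the library labelled miR-105. Of 152 windows of 20 Mb with at least 20 compared genes, 4 had a median of 0.5 or more in the library labelled MYC, all on chromosome 1, with the highest, 0.99, starting at 200 Mb. Elsewhere the highest window median was 0.42. The part of this chromosome 1 stretch in the EPRS and IARS2 folds was not tested, and these windows were chosen after the values were seen. With the median of the neighbours subtracted from each fold, EPRS and IARS2 no longer passed 1.5-fold in the library labelled MYC, while LARS, MARS2, NARS2, YARS2 and VARS2 did and EARS2 and SARS2 newly passed, so that 5 mitochondrial members were higher. Neither EPRS, NARS nor FARS2 then passed it in the library labelled miR-105, while SARS2 newly passed, and 11 cytosolic and 8 mitochondrial members were higher there.

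**Figure D3:**
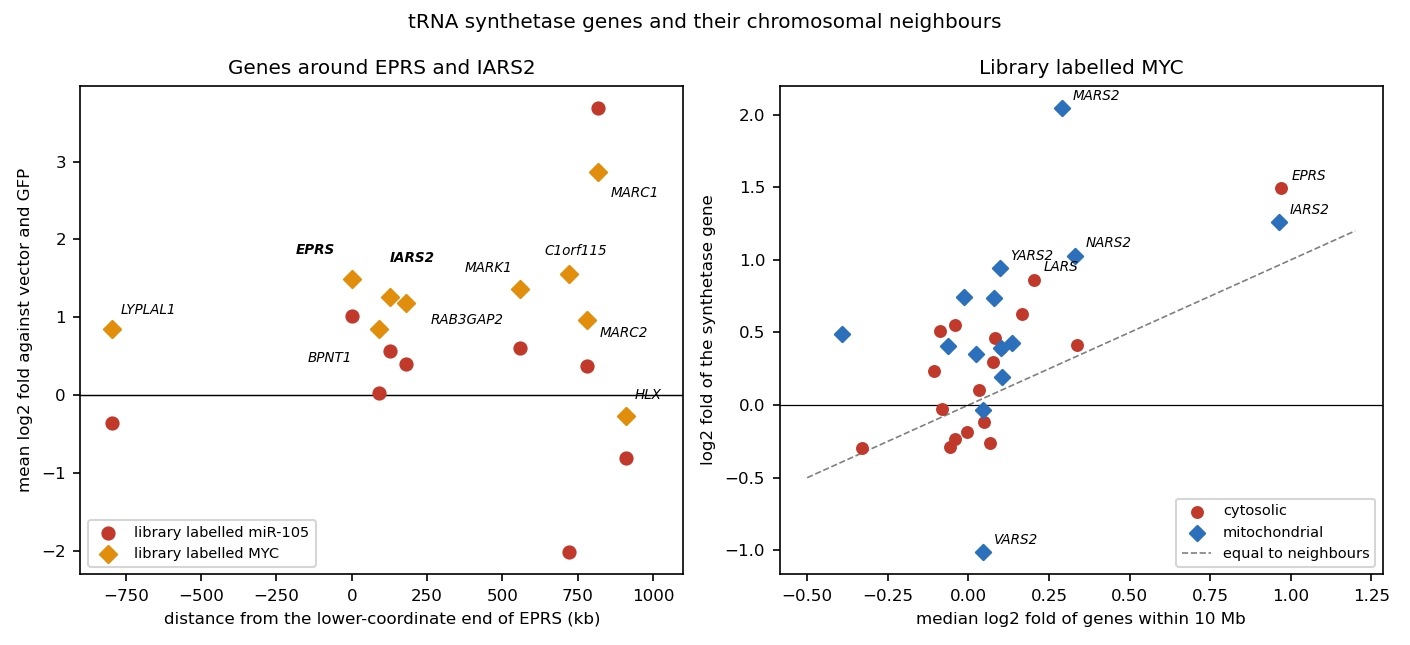
Left, mean log2 fold against vector and GFP of compared genes within 1 Mb of EPRS and IARS2, in the library labelled miR-105 (circles) and the library labelled MYC (diamonds), by distance in kb from EPRS; names stand beside the diamonds, and 7 of 8 neighbours passed 1.5-fold in the library labelled MYC. Right, log2 fold of each synthetase gene in the library labelled MYC against the median of genes within 10 Mb; EPRS and IARS2 sit at neighbour medians of 0.97 and 0.96, apart from the other members.

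The libraries labelled miR-105 and MYC were then set against each other, without the shared controls. In the library labelled miR-105, 9 of 18 cytosolic members were at least 1.5-fold higher and 0 lower, where 31.0% of all compared genes were higher and 30.3% lower. Those 9 were MARS, WARS, VARS, GARS, TARS, RARS, HARS, YARS and FARSA, from 3.01-fold for MARS to 1.53-fold for FARSA. Of the 14 mitochondrial members, LARS2 (2.69-fold), AARS2 (2.14-fold), VARS2 (2.12-fold) and EARS2 (2.11-fold) were higher and IARS2 lower (1.62-fold). The median log2 fold of miR-105 over MYC was 0.59 for the cytosolic and 0.20 for the mitochondrial members, against 0.05 for all genes, but the mitochondrial median was -0.0062 with library totals alone. The controls were also set against each other, and 0 of 18 cytosolic and 0 of 14 mitochondrial members passed 1.5-fold in GFP over vector, where 14.2% of all genes were higher and 8.42% lower.

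The cytosolic median log2 fold exceeded the mitochondrial one by 0.28 in the library labelled miR-105 and was below it by 0.19 in the library labelled MYC. No test is available for these differences. With the median of each member's neighbours within 10 Mb subtracted, the difference was 0.07 in the library labelled miR-105 and -0.22 in that labelled MYC. Enzymes for the same amino acid could be set side by side in 13 pairs, with EPRS paired with both EARS2 and PARS2. The cytosolic gene had the higher log2 fold in 5 of 13 pairs in the library labelled miR-105 and in 7 of 13 in that labelled MYC. The median over pairs of the cytosolic minus the mitochondrial log2 fold was -0.21 and 0.0067 in these libraries. Pairing by amino acid thus reversed the sign in the library labelled miR-105 and left almost no difference in that labelled MYC. In the library labelled miR-105 the pair for valine differed most in favour of the cytosolic gene, with VARS at 1.5 and VARS2 at 0.06, followed by WARS at 1.18 and WARS2 at -0.16, and HARS at 1.13 and HARS2 at -0.06. The pair for methionine differed most the other way, with MARS at 1.29 and MARS2 at 2.57. In the library labelled MYC that pair stood furthest apart, with MARS at -0.29 and MARS2 at 2.04, while EPRS at 1.49 and PARS2 at 0.39 had a cytosolic excess of 1.1, and VARS at 0.11 and VARS2 at -1.01 one of 1.12.

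**Figure D4:**
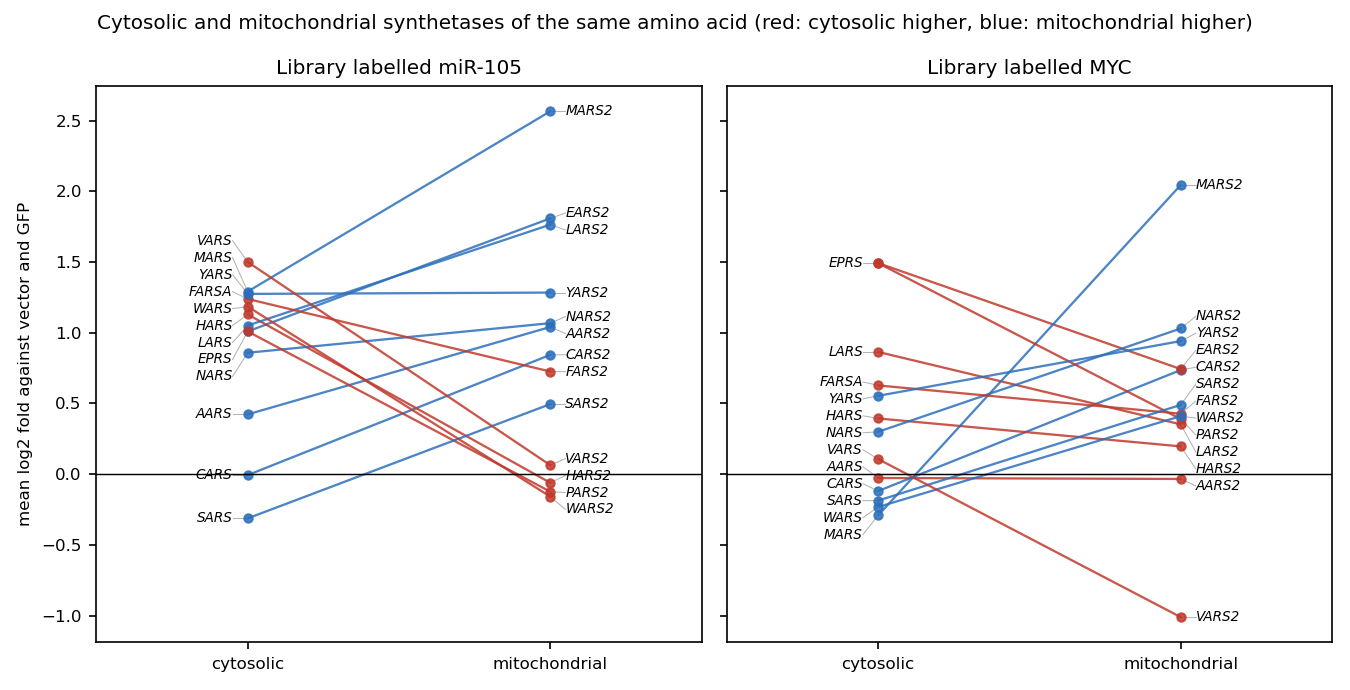
Mean log2 fold against vector and GFP of the cytosolic (left of each panel) and mitochondrial (right) synthetase gene of the same amino acid, joined by a line, in the library labelled miR-105 and the library labelled MYC. Red lines slope down where the cytosolic gene had the higher fold, 5 of 13 pairs and 7 of 13 pairs, and the MARS to MARS2 line is the steepest upward one in both panels.

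Members of the multi-synthetase complex were also counted apart from the other cytosolic members, a grouping made after the values were seen. For the library labelled miR-105, 5 of 7 complex members (EPRS, LARS, MARS, RARS and KARS, not QARS and DARS) and 8 of 11 others were higher. For that labelled MYC, 2 of 7 and 0 of 11 were higher. The counts of the other lists are to be read against the shares over all compared genes, which were 24.6% higher and 26.0% lower in the library labelled miR-105 and 17.3% higher and 18.0% lower in that labelled MYC. Of the scaffold genes, AIMP2 and EEF1E1 were higher in the library labelled miR-105, and 0 of 3 were in that labelled MYC. AIMP2 stood at 99.1 CPM in the library labelled miR-105 and 45.0 CPM in that labelled MYC, against 42.9 CPM in vector and 35.3 CPM in GFP. The elongation factor 1 genes were counted next, and 0 of 4 were higher and 1, EEF1A1, lower in the library labelled miR-105. EEF1A1, which takes charged tRNA to the ribosome, stood at 2737 CPM there and 6476 CPM in that labelled MYC, against 6415 CPM in vector and 4673 CPM in GFP. The controls differed for the other 3, EEF1B2, EEF1D and EEF1G, which were at least 1.5-fold lower in GFP than in vector, as were 8.42% of all compared genes. EEF1A1 has many processed pseudogenes, so its counts are uncertain.

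Other charging and tRNA-handling genes were 6 of 12 higher and 1 lower in the library labelled miR-105 and 5 of 12 higher and 0 lower in that labelled MYC, with median log2 folds of 0.66 and 0.54. XPOT, which exports tRNA from the nucleus, stood at 240.0 and 175 CPM in the libraries labelled miR-105 and MYC, against 77.8 and 99.3 CPM in vector and GFP, and was higher in both. DTD1, which removes wrongly attached D-amino acids from tRNA, stood at 78.4 and 50.2 CPM in the libraries labelled miR-105 and MYC, against 32.6 and 28.2 CPM in vector and GFP, and was also higher in both. TRNT1, which adds the CCA end to tRNA, was higher in the library labelled miR-105, at 39.4 CPM there and 15.5 CPM in that labelled MYC, against 14.4 CPM in vector and 17.3 CPM in GFP. SEPSECS, which makes selenocysteine on its tRNA, was lower in the library labelled miR-105, at 8.0 CPM there and 32.3 CPM in that labelled MYC, against 20.2 CPM in vector and 23.6 CPM in GFP.

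Mitochondrial translation factors had 2 of 9 higher in the library labelled miR-105 and 1 of 9 in that labelled MYC, with 0 lower in either and medians of 0.42 and 0.50, so the counts of higher genes were near the 24.6% and 17.3% of all genes. GFM1, a mitochondrial elongation factor, stood at 124 CPM in the library labelled miR-105 and 50.9 CPM in that labelled MYC, against 34.5 CPM in vector and 39.7 CPM in GFP. Mitochondrial biogenesis genes had 6 of 8 higher and 1 lower in the library labelled miR-105 and 3 of 8 higher in that labelled MYC, with medians of 1.09 and 0.52. TFB2M, which melts mitochondrial promoters for transcription, stood at 71.2 and 55.5 CPM in the libraries labelled miR-105 and MYC, against 23.6 and 23.2 CPM in vector and GFP. PPARGC1A, the coactivator PGC-1alpha, was the 1 lower gene, at 0.314 CPM in the library labelled miR-105 and 13.3 CPM in that labelled MYC, against 4.11 CPM in vector and 8.81 CPM in GFP. Its value in the library labelled miR-105 rests on 2 reads. PPARGC1A was higher in that labelled MYC, at 3.23-fold vector (2.24 to 4.75) and 1.51-fold GFP (1.17 to 1.94). The controls differed too, with GFP 2.15-fold vector.

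Genes of the amino acid response, of which many cytosolic synthetases are part, were counted next. Of 15 genes 6 were higher and 3 lower in the library labelled miR-105, and 4 higher and 1 lower in that labelled MYC, with medians of 0.36 and 0.31. Over all genes, 24.6% were higher and 26.0% lower for miR-105, and 17.3% and 18.0% for MYC. The serine synthesis genes PSAT1 and PHGDH were higher in both. PSAT1 stood at 132 and 71.7 CPM in the libraries labelled miR-105 and MYC, against 12.1 and 15.7 CPM in vector and GFP, and PHGDH at 52.5 and 22.7 CPM, against 7.89 and 6.21 CPM. EIF4EBP1, a brake on cap-dependent translation, stood at 142 and 40.5 CPM in the libraries labelled miR-105 and MYC, against 34.7 and 30.7 CPM in vector and GFP. The stress genes DDIT3 and CHAC1 were lower in the library labelled miR-105. DDIT3, whose values there are given with MARS, stood at 9.39 CPM in the library labelled MYC, which was also lower than both controls, and CHAC1 at 0.784 and 2.56 CPM in the libraries labelled miR-105 and MYC, against 3.57 and 4.05 CPM in vector and GFP. The CHAC1 value in the library labelled miR-105 rests on 5 reads.

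Interferon gamma targets were set beside WARS. Of 7 genes, 3 were higher and 3 lower in the library labelled miR-105, where WARS was higher, and 4 were higher and 1 lower in that labelled MYC, where WARS was not. Over all genes, 24.6% were higher and 26.0% lower for miR-105, and 17.3% and 18.0% for MYC. PSMB9, 1 of the 3 higher genes, rests on 9 reads in the library labelled miR-105, against 4 in vector and 11 in GFP. GBP2, a guanylate-binding protein, stood at 1.88 CPM in the library labelled miR-105 and 132 CPM in that labelled MYC, against 135 CPM in vector and 134 CPM in GFP. NLRC5, which drives class I antigen presentation genes, stood at 6.27 and 46.0 CPM in the libraries labelled miR-105 and MYC, against 1.51 and 1.16 CPM in vector and GFP. All these genes share the control libraries of the synthetase comparisons.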

How the data were processed

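Poly(A) RNA-seq of 4 MCF10A lines was used, with 1 library per construct as the labels give it. TopHat2, edgeR and the build hg19 are named in the submitters' processing notes, with no versions. In the sources used here, the counter, annotation and strandedness are not given.

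The deposited table held 1 normalised signal per gene symbol and library, made by the authors, where raw counts had been assumed in the design. The values had the form of edgeR pseudo-counts, and inverting that mapping gave whole reads for 99.96% of values in vector and GFP and 100% in miR-105 and MYC, with a largest relative residual of 1.29e-05 at a tolerance of 1e-05. The inversion and the count tests were checked on simulated data. Of 18859 lines, 19 exact repeats were dropped. CPM used TMM factors, so that 1 read was worth 0.157 CPM in miR-105, 0.0948 in MYC, 0.108 in vector and 0.0722 in GFP. Fold intervals are exact conditional binomial (Clopper-Pearson) 95% intervals, and since the reads carry no molecular identifiers they are not independent molecules.

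No test is the main result. The threshold was 1.5-fold against both controls, on ratios with nothing added, while log2 folds have 0.5 CPM added, which understates changes of low genes. As an alternative, edgeR's quasi-likelihood test on the recovered reads, with vector and GFP as 1 group and 1 residual degree of freedom, compares these libraries and not the conditions. At an adjusted p threshold of 0.05 it called 2468 genes higher and 2410 lower in miR-105, and 1361 higher and 1427 lower in MYC. DESeq2 called 1606 and 1751, and 703 and 1053.

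Exon lengths (GENCODE 29, protein-coding transcripts) gave CPM per kb. Positions are from that annotation on GRCh38, matched by symbol. Levels are given for every member, folds with intervals for members past the threshold and for the largest and smallest fold of each set, and at most 5 genes of any other list past the threshold. Some genes of the other lists are not reported here and were left out of their counts. The members, lists and thresholds were chosen with earlier results of these data known. Python 3.11.15, R 4.3.3, edgeR 4.0.16 and DESeq2 1.42.0 were used.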

Additional observations from a re-analysis of the deposited data

How the results depend on the processing

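With 1 library per group the spread between cultures was not measured, and the lowest members rest on few reads (49 for MARS2 in vector). No paired analysis was possible because each construct had 1 library. Leaving aside both filter settings, which all members passed, and counts of 0 in both, 45 of 67 recalculated counts were within 1.5 times the value reported and 1 of 60 medians reversed. The cause of the changes below was not tested.

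Library totals alone shifted the median of all genes by -0.10 in miR-105, 0.11 in MYC and -0.20 in miR-105 over MYC (log2). The cytosolic median was then 0.96 in miR-105 and 0.37 in MYC, the mitochondrial median in MYC was 0.56, and miR-105 over MYC had medians of 0.37 (cytosolic) and -0.0062 (mitochondrial, reversed), with 2 cytosolic and 3 mitochondrial members lower. That scaling moved the share of higher among all called genes to 40.7% in miR-105 over MYC, against 50.6%. DESeq2 size factors gave 2 mitochondrial members lower in miR-105 over MYC and 1 in GFP over vector, and the deposited values 3 and 1. Pseudocounts of 0.1 and 2 CPM gave a cytosolic minus mitochondrial difference in MYC of -0.20 and -0.16. At 2-fold, 4 mitochondrial members were higher in miR-105, 1 cytosolic and 2 mitochondrial higher and 0 mitochondrial lower in MYC, and 5 cytosolic higher and 0 mitochondrial lower in miR-105 over MYC. Subtracting the local median, an alternative chosen after seeing the data, gave medians in miR-105 of 0.97 (cytosolic) and 0.90 (mitochondrial), a difference of 0.071, 1 cytosolic member higher in MYC with a difference of -0.22, 2 mitochondrial members lower in miR-105 over MYC, and a mitochondrial median of -0.19 in GFP over vector. edgeR called 1 cytosolic member higher in MYC. DESeq2 called 4 mitochondrial members higher in miR-105, and 1 cytosolic and 2 mitochondrial higher and 0 lower in MYC.

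Leaving out 1 control library gave, in miR-105, 13 to 14 cytosolic members higher and 0 to 1 lower, 9 mitochondrial members higher, medians of 1.02 to 1.14 and 0.69 to 0.86, and differences of 0.28 to 0.33. In MYC it gave 2 to 5 cytosolic and 5 to 7 mitochondrial members higher, 1 mitochondrial lower, medians of 0.22 to 0.31 and 0.48 to 0.58, and differences of -0.27 to -0.26. A call then needs 1 control in place of both, so these counts could only stay or rise.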
